A study of Mus musculus with 24 samples.

Results

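The genes described here are 9 targets of p53 that act in cell death and growth control outside the Bcl2 and caspase families: Perp, Phlda3, Zmat3, Eda2r, Aen, Trp53inp1, Ei24, Plk2 and Plk3. The rule names them by symbol as known targets of p53. All 9 are among the 25239 genes listed, and all 9 passed the filter on low values that left 14104 genes to be tested.

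Expression was measured by RNA-seq in 6 cell lines, each grown from a separate mouse small cell lung tumor. The tumors had been started by delivering Cre by adenovirus (Ad:CMV-Cre) to mice carrying Trp53 XTR/XTR, Rosa26 FlpO-ER and floxed Rb1 and Rbl2 (both flox/flox) on a mixed B6J/129S4vJae background. By this design every line, controls included, carries the Rb1 and Rbl2 deletions. The Trp53 XTR allele is silenced by a gene trap, and 4-hydroxytamoxifen (4-OHT) activates FlpO-ER, which removes the trap and restores p53. Type D lines (4711-1, 4711-18 and 4716-11, replicates 1, 2 and 3) lose viability once p53 returns, and Type V lines (4711-11, 4716-10 and 4716-14, replicates 1, 2 and 3) remain viable. Each line was sampled at 72 h after ethanol vehicle (Control), cyclosporin A, a drug that binds cyclophilins (Control + CsA), 4-OHT (Restored) or both agents (Restored + CsA). The 24 libraries thus form 8 groups of 3 lines, with 1 library per line and treatment. The restored groups received 4-OHT and the control groups did not, so p53 restoration and 4-OHT itself cannot be told apart. Values are TPM, a length-scaled share of the library, and depth is unknown. In these bulk samples, less RNA per cell and fewer expressing cells cannot be told apart.

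p53 is a transcription factor that binds DNA as a tetramer and switches on genes for cell cycle arrest, DNA repair, metabolism and death. The best known death targets encode Bcl2 family proteins that act at mitochondria. The 9 genes here lie outside that family: they encode a membrane protein of cell junctions, a death receptor, an endoplasmic reticulum protein, a brake on AKT signaling, an RNA-binding protein, a nuclease, a stress-response cofactor and a pair of kinases. Small cell lung cancer is a neuroendocrine tumor, and its cells express genes of nerve and hormone-secreting cells.

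Trp53 checked the labels: its group means were 11.9 TPM (Type D) and 14.1 TPM (Type V) in Control, against 199 and 219 TPM in Restored. Over the 24 libraries Rb1 ranged from 7.36 to 68.8 TPM and Rbl2 from 4.49 to 20.6 TPM. TPM was given per gene, so these values do not show whether the floxed exons were lost. Of the 5 check genes (Trp53, Cdkn1a, Mdm2, Rb1 and Rbl2), 4 rose on restoration in each type (background 4.49% in Type D and 3.39% in Type V). Of 7 neuroendocrine markers, 4 passed the filter. Chga was at 0 in all libraries and Neurod1 did not exceed 0.0954 TPM, so defining markers of the labelled tumor type were absent or near 0 in these lines. The summed TPM of the 7 markers was 9.63 to 20.4 in Type D Control and 33.0 to 79.1 in Type V Control, and that of 4 epithelial markers (Epcam, Cdh1, Krt8 and Krt18) 6695 to 11816 and 663 to 1577. Of 6 markers of immune, endothelial and fibroblast cells, Dcn alone passed the filter. Its mean was 38.2 TPM in Type V Control and 0.0305 TPM in Type D Control. These marker differences between types lie beside each comparison of types, and their part in the results was not tested.

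Promoter windows from RefSeq (GRCm38.p6, from 250 bases before to 50 bases after a start) were found for Phlda3, Eda2r, Aen, Ei24, Plk2 and Plk3. They were searched for the p53 half-site, the 10-base unit of which a p53 site holds a pair; its consensus reads the same on both strands. Of the 6 genes, 2 had a match, Aen and Ei24, against 9.55% of all 27025 genes with a window in the table. The stretches are shown because they are the only matches among the members, with the half-site in capitals and 10 bases on either side. Each is exonic in 2 GENCODE M21 transcript models. The Aen stretch lies at chr7:78895927-78895956 (plus strand) and the Ei24 stretch at chr9:36797325-36797354 (minus strand).
Aen: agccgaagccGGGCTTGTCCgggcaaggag
Ei24: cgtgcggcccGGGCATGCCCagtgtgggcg
In the Ei24 window the half-site begins 10 bases before the annotated start. Aen has 2 annotated starts, and its half-site begins 121 bases before the downstream one and at base 11 counted from the upstream one. No match was found in the windows of Phlda3, Eda2r, Plk2 and Plk3, which says only that these letters are not in those windows. Binding data were not analysed here, and genes with and without a match are described below.

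The first comparison asked which of the genes responded when p53 came back. A gene was called when limma gave a Benjamini-Hochberg adjusted p under 0.05 over all genes tested and a change of at least 1 on the log2(TPM + 1) scale. In Type D lines 9 of 9 members rose, against 4.49% of all genes tested. In Type V lines 7 of 9 rose, against 3.39%, with Plk2 and Plk3 outside the call. Under CsA the counts were 8 of 9 in Type D (background 3.53%) and 7 of 9 in Type V (2.84%), and the members other than Plk2 and Plk3 changed by 1.60 (Ei24) to 3.93 (Eda2r) and by 1.54 (Ei24) to 3.44 (Eda2r). With 1 Type D line left out the Type D count was 6 to 7, and without 4711-18 it was 5 under CsA. With 1 Type V line left out the Type V count was 6 to 7. With only the compared groups fitted the Type V counts were 3 and, under CsA, 4. The median change of the 9 was 2.47 in Type D and 2.06 in Type V, beside 0.0749 and 0.0473 for all genes tested. For 8 of the 9 the Restored and Control libraries did not overlap in either type (background 20% of genes higher in Type D and 12% in Type V), and the exception was Plk3.

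**Figure D1:**
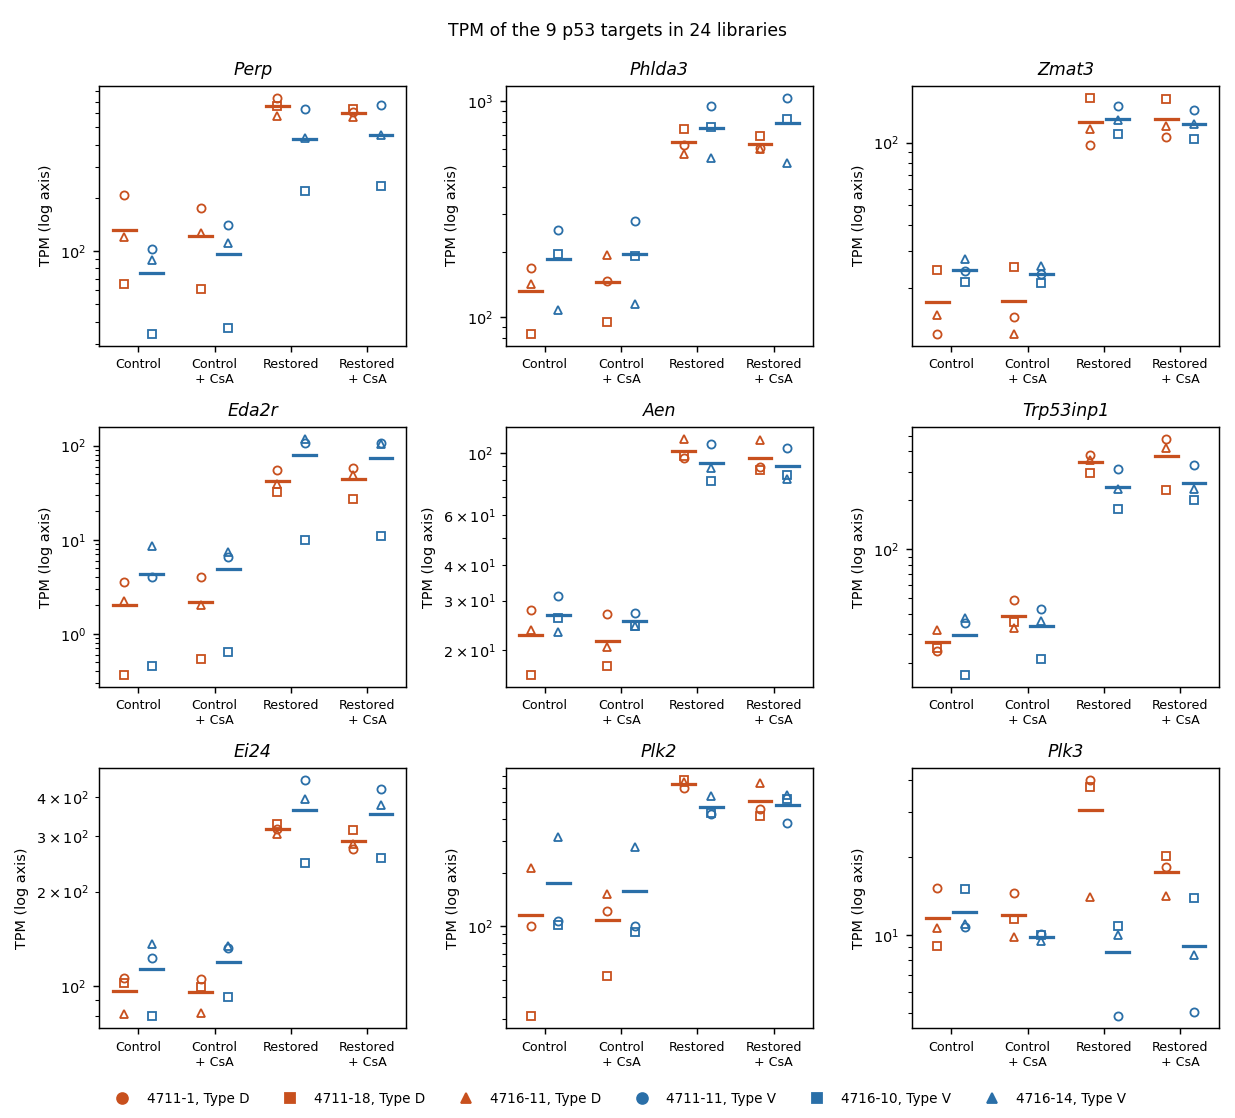
TPM (log axis) of each of the 9 genes in the 24 libraries, by treatment, with Type D lines in orange, Type V lines in blue, a symbol for each line and bars at the group means. Except in the Plk3 panel, the restored libraries of each type lie above their controls, with and without CsA. Plk3 reaches 39.9 and 37.4 TPM in 2 Type D lines and stays between 4.85 and 10.9 TPM in Restored Type V lines.

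Of the members at membranes, Perp (chr10:18845020-18857073, GENCODE M21 on GRCm38) encodes a tetraspan protein of the PMP22 family that is needed for desmosomes and takes part in p53-dependent apoptosis. Its TPM in Type D Control was 208 in 4711-1, 65.1 in 4711-18 and 120 in 4716-11, and in Restored 737, 662 and 582. In Type V Control it was 103 in 4711-11, 34.1 in 4716-10 and 89.4 in 4716-14, and in Restored 637, 220 and 436. Perp therefore ended within a narrow span in Type D and a wide one in Type V, and the Type D line with the lowest control, 4711-18, gained the most (10.2-fold). The fitted change was 2.47 ± 0.55 (SE) in Type D (adjusted p = 0.00539) and 2.51 ± 0.55 in Type V (adjusted p = 0.00582). The Type D call was lost without 4711-18 (adjusted p = 0.0976) or without 4716-11 (0.0614), and the Type V call when only the compared groups were fitted (0.0979). With the cell line as a block these adjusted p were 1.75e-06 and 2.1e-06.

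Perp's relatives and partners were not called with it. None of its 4 family relatives tested, Emp1, Emp2, Emp3 and Pmp22, was called on restoration in either type. Among all genes tested, 6.93% were called either way in Type D and 5.29% in Type V. With so few genes, 0 calls lies near those shares. Of 7 genes for desmosome parts, 0 were called, and their median changes were 0.0798 in Type D and 0.0173 in Type V, close to all genes. With the line as a block 1 family relative was called in Type D and 0 desmosome genes were (background 11.2%). Before restoration 3 of the 7 desmosome genes were called between the types, against 8.83% of all genes tested, and all 3 (Dsp, Pkp2 and Dsc2) were higher in Type D. Pkp1, a plakophilin, went the other way without a call (-3.08, limma adjusted p = 0.0663). Dsp, the plakin that anchors keratin at desmosomes, had a mean of 64.8 TPM in Type D Control and 5.04 TPM in Type V Control. Trp63, a p53 relative known to drive Perp in stratified epithelia, had a mean of 0.0961 TPM in Type D Control and 13.0 TPM in Type V Control. Perp itself did not differ by the test between types in Control (0.78, 95% confidence interval -0.38 to 1.94).

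Eda2r (chrX:97333840-97377216, minus strand) encodes the TNF receptor family member that binds the A2 form of ectodysplasin. Its Control TPM was 3.53, 0.364 and 2.23 in the Type D lines, in the order 4711-1, 4711-18 and 4716-11. Its Restored TPM there was 55.5, 31.9 and 39.3. Type V Control libraries had 4.06, 0.45 and 8.54 TPM in the order 4711-11, 4716-10 and 4716-14, and Restored libraries had 108, 9.89 and 118 TPM. The lowest library of each type in Control thus remained the lowest after restoration, and 4716-10 ended far below the other Type V lines.

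Eda2r had the largest fitted change of the 9 in both types, 3.96 ± 0.96 (SE) in Type D (adjusted p = 0.00917) and 3.66 ± 0.96 in Type V (adjusted p = 0.0181). Per line the change was 3.64, 4.59 and 3.64 in Type D and 4.43, 2.91 and 3.64 in Type V. The Type D call was lost without any one Type D line (adjusted p 0.0747 to 0.116), and the Type V call without 4711-11 (0.148), without 4716-14 (0.0735) or with only the compared groups (0.2). With the line as a block the SE was 0.25 in each type and the adjusted p were 1.36e-08 and 3.95e-08. Its ligand gene Eda had a mean of 1.57 TPM in Type D Control and 5.04 TPM in Type V Control and was not called on restoration. None of the 3 genes tested around the receptor (Eda, Edaradd and Tnfrsf19) was called on restoration, and Edar did not pass the filter.

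Ei24 (chr9:36779159-36797393, minus strand) encodes an endoplasmic reticulum membrane protein linked to autophagy and apoptosis. Its TPM was 106, 102 and 81.7 in Type D Control and 317, 329 and 306 in Restored. Type V libraries had 123, 80.1 and 136 TPM in Control and 454, 248 and 394 TPM in Restored. The rise was the most even of the 9, from 1.53 to 1.89 over the 6 lines. The fitted change was 1.72 ± 0.23 (SE) in Type D (adjusted p = 4.4e-05) and 1.67 ± 0.23 in Type V (adjusted p = 9.47e-05). The Type V call was lost when only the compared groups were fitted (0.061).

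Phlda3 (chr1:135766119-135769136) encodes a small protein with a PH domain that competes with AKT for membrane lipids. Type D libraries held 168, 83.4 and 142 TPM before and 626, 745 and 572 TPM after restoration. Type V libraries had 253, 197 and 108 TPM in Control and 950, 759 and 546 TPM in Restored. In Type D the line with the lowest control, 4711-18, ended highest, whereas in Type V the order of the 3 lines was kept. The fitted change was 2.34 ± 0.37 (SE) in Type D (adjusted p = 0.000208) and 2.06 ± 0.37 in Type V (adjusted p = 0.00101; 0.0595 with only the compared groups). Its relatives Phlda1 and Phlda2 were not called on restoration (background 6.93% in Type D and 5.29% in Type V), with changes of 1.06 and -1.17 in Type D. With the line as a block both were called in Type D (background 11.2%) and 1 of them in Type V (8.66%).

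Among the members that act in the nucleus or on RNA, Zmat3 (chr3:32334792-32366014, minus strand) encodes a zinc finger protein that binds RNA and alters splicing and mRNA stability. In Type D Control its TPM was 12.0, 24.3 and 14.8, and in Restored 97.6, 165 and 116. In Type V Control it was 24, 21.4 and 27.4, and in Restored 150, 110 and 128. The Type V range after restoration, 110 to 150 TPM, lay inside the Type D range of 97.6 to 165 TPM. The fitted change was 2.84 ± 0.27 (SE) in Type D (adjusted p = 6.2e-07) and 2.36 ± 0.27 in Type V (adjusted p = 7.17e-06). Of its 3 relatives tested (Zmat1, Zmat2 and Zmat5), 0 were called in any restoration comparison, with or without the line as a block. The background was 4.61% to 6.93% of all genes, and 7.97% to 11.2% with the block.

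Aen (chr7:78895854-78911209) encodes a nuclear exonuclease that contributes to DNA fragmentation in dying cells. Type D Control libraries had 27.7, 16.4 and 23.7 TPM and Restored libraries 96.0, 97.5 and 112 TPM. In Type V the Control values were 31.2, 26.0 and 23.2 and the Restored values 108, 79.1 and 88.5. The fitted change was 2.15 ± 0.19 (SE) in Type D (adjusted p = 3.63e-07) and 1.74 ± 0.19 in Type V (adjusted p = 5.08e-06). Its relatives Isg20 and Isg20l2, also exonuclease genes, were not called in any restoration comparison (background 4.61% to 6.93% of all genes).

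Trp53inp1 (chr4:11156431-11174379) encodes a stress protein that assists p53 and takes part in autophagy. Its TPM rose from 23.5, 24.6 and 32.0 in Type D Control to 380, 296 and 355 in Restored. Type V lines went from 35.0, 16.8 and 37.7 TPM to 313, 176 and 235 TPM. The fitted change was 3.64 ± 0.33 (SE) in Type D (adjusted p = 4.2e-07) and 3.01 ± 0.33 in Type V (adjusted p = 5.08e-06). Its relative Trp53inp2 was not called, with changes of 0.77 in Type D and 0.48 in Type V.

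**Figure D2:**
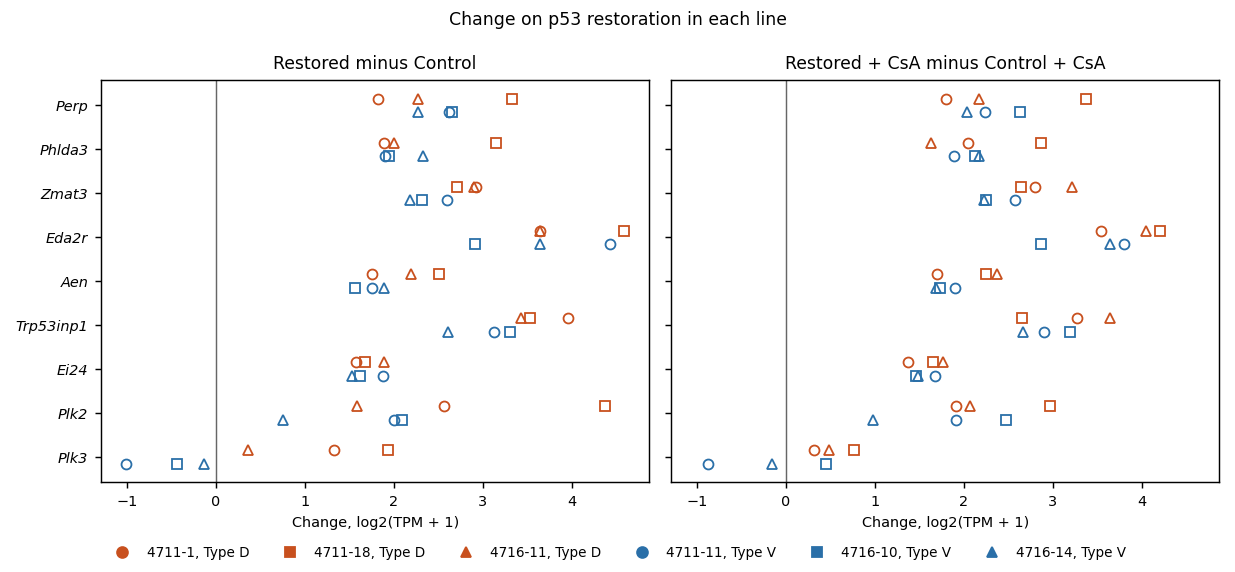
Change in log2(TPM + 1) on p53 restoration in each line, without CsA (left) and with CsA (right). Points are single lines, Type D in orange and Type V in blue, and the vertical line marks no change. All points of the first 8 genes lie right of 0, and the 3 Type V points of Plk3 lie left of 0 without CsA.

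The remaining members are Polo-like kinases. Plk2 (chr13:110395046-110400844) acts in centriole duplication and stress responses, and Plk3 (chr4:117128655-117133963, minus strand) in stress and DNA damage responses. For Plk2 the Type D libraries held 99.9, 31.0 and 214 TPM before and 596, 664 and 644 TPM after restoration. The 3 Type D lines thus began far apart and ended within a narrow span, with gains of 5.96-fold, 21.4-fold and 3.02-fold. Plk2 in Type V was 107, 102 and 319 TPM in Control and 429, 435 and 538 TPM in Restored. In both types the line with the highest control gained the least.

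Plk2 rose by 2.84 ± 0.56 (SE) in Type D (adjusted p = 0.00199; 0.0643 with only the compared groups). In Type V the change was 1.61 ± 0.56 and missed the call (adjusted p = 0.0802), although it was positive in 3 of 3 lines. With the line as a block the Type V change was called (adjusted p = 0.00385). Under CsA the change was 2.32 in Type D (adjusted p = 0.0124), a call lost without 4711-1 (0.0852) or 4711-18 (0.0549). In Type V under CsA it was 1.79 (adjusted p = 0.061), called with the block (0.00219).

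Plk3 was the member with the largest difference between the types after restoration. Its TPM in Type D Control was 15.2 in 4711-1, 9.08 in 4711-18 and 10.7 in 4716-11, and in Restored 39.9, 37.4 and 14.0. In Type V Control it was 10.8 in 4711-11, 15.1 in 4716-10 and 11.0 in 4716-14, and in Restored 4.85, 10.9 and 9.97. The Type D change was 2.61-fold in 4711-1 and 4.12-fold in 4711-18 but 1.31-fold in 4716-11, whose Restored library lay within the range of the Type D controls. In Type V the Restored value was 44.9% of Control in 4711-11, and all 3 lines were lower than their own controls.

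The fitted change of Plk3 was 1.21 ± 0.37 (SE) in Type D (adjusted p = 0.0356) and -0.52 ± 0.37 in Type V (adjusted p = 0.463). The Type D call rests on the lines 4711-1 and 4711-18: without the first the adjusted p was 0.183, and without the second 0.405 with a change of 0.84. It was also lost with no filter on low values (0.0523), after quantile normalization (0.0901), after median-ratio scaling (0.07) and with only the compared groups (0.162), and with the line as a block it was 0.0015. Under CsA the Plk3 change was not called in either type. It was 0.52 ± 0.37 in Type D (adjusted p = 0.462) and -0.20 ± 0.37 in Type V (adjusted p = 0.88).

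Plk1 and Plk4, of the same kinase family, moved the other way. Plk1, the kinase of mitotic entry and spindle assembly, had means of 163 TPM in Type D Control and 12.7 TPM in Restored, and of 166 and 27.1 TPM in Type V. It fell by 3.79 in Type D (limma adjusted p = 3.84e-06) and by 2.56 in Type V (0.000391). Plk4, the kinase of centriole duplication, fell from a mean of 36.4 TPM to 7.73 in Type D lines, and from 45.2 TPM to 10.8 in Type V lines. Both kinases also fell under CsA in both types, where 1.88% and 1.77% of all genes fell. Plk5 averaged 0.125 TPM in Type D Control, was listed at 0 in all 3 Type V Control libraries, and was not called. Restoration thus raised Plk2 and lowered Plk1 and Plk4 in the same Type D lines, and 2.44% of all genes tested fell in Type D and 1.9% in Type V.

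**Figure D3:**
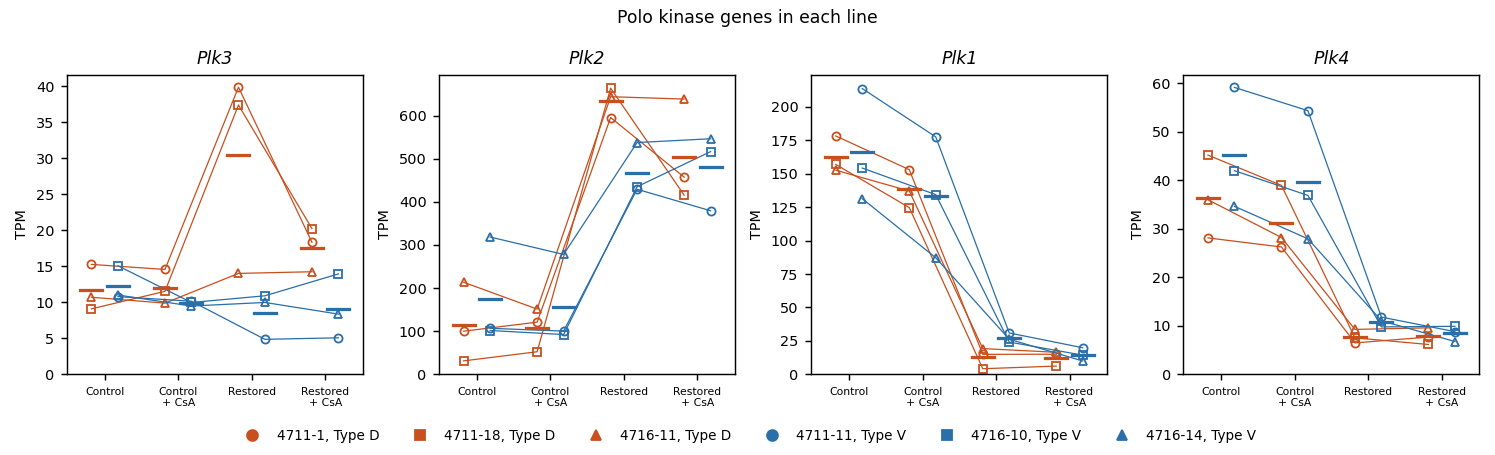
TPM of Plk3, Plk2, Plk1 and Plk4 in each line across the 4 treatments, with linear axes that start at 0 and bars at group means. Lines join the libraries of one cell line. Plk3 peaks in Restored in 4711-1 and 4711-18 and is at 18.3 and 20.2 TPM there with CsA added, while Plk1 and Plk4 drop in all 6 lines.

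The next comparison asked whether CsA changed these genes. CsA alone moved none of them by the test in either type, where 0% of all genes tested were called in each type. An unadjusted limma p under 0.05 was given to 114 genes (0.808%) by the Type D test and to 54 (0.383%) by the Type V test. None of the 9 was among them. This fit has no line term, so the spread between lines enters the contrast. The absence of calls therefore does not show that CsA had no effect. The fitted changes ran from -0.09 to 0.52 in Type D and from -0.28 to 0.29 in Type V. Trp53inp1 had the upper value in Type D: its TPM with CsA was 48.6, 35.6 and 32.9, above the 23.5, 24.6 and 32.0 of Control without overlap. It was 1 of 9 members to separate there (background 2.13% of genes higher and 5.07% in either direction). Plk3 had the lower value in Type V: its TPM was 10.1, 9.97 and 9.47 with CsA, below all 3 Control libraries. It was 1 of 9 members to separate in Type V (background 1.19% of genes lower and 2.31% in either direction). Both had an adjusted p of 1 in limma. With the line as a block 0 members were called as well (background 0.0142% in Type D and 0% in Type V).

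CsA added to restoration likewise called 0 of 9 members in each type, against a background of 0.0142% in Type D and of 0% in Type V. Here 229 Type D genes (1.62%) and 100 Type V genes (0.709%) had an unadjusted p under 0.05 in the same fit without a line term, again without any of the 9. The largest difference was in Plk3 in Type D, whose Restored TPM of 39.9, 37.4 and 14.0 stood beside 18.3, 20.2 and 14.2 with CsA. That is 46.0% and 54.1% of the level without CsA in 4711-1 and 4711-18 and 102% in 4716-11. The fitted difference was -0.64 (95% confidence interval -1.41 to 0.13, adjusted p = 1), and with the block -0.64 (adjusted p = 0.317). For Plk2 in Type D the levels with CsA were 457, 416 and 639 TPM, and the difference was -0.36 (-1.54 to 0.83). In the other 7 genes the fitted differences in Type D lay between -0.13 and 0.07. In this fit the intervals of Perp, Eda2r, Plk2 and Plk3 in Type D reached a change of 1 log2. With the line as a block they narrowed to -0.66 to 0.42 for Perp and -0.49 to 0.59 for Eda2r, and still reached -1 for Plk2 (-1.19 to 0.48) and Plk3 (-1.20 to -0.08, unadjusted). The comparisons of CsA added to restoration and of restoration share the Restored libraries.

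Types were then compared at the same treatment. In Control 0 of 9 members were called, against 8.83% of all genes tested, and differences (Type D minus Type V) ran from -0.78 for Plk2 to 0.78 for Perp. Of the 3850 genes (27.3% of all tested) with an unadjusted p under 0.05 in limma none was a member, and Zmat3 came nearest (-0.54, adjusted p = 0.196 in limma). Before p53 returned, Plk3 stood at 11.7 ± 3.2 TPM in Type D and 12.3 ± 2.41 TPM in Type V (SD, n = 3), well within the spread of the lines.

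In Restored 1 of 9 members was called, against 9.44% of all genes, a count near that share. It was Plk3, with a mean of 30.4 ± 14.3 TPM in Type D and 8.57 ± 3.26 TPM in Type V (SD, n = 3). Its difference was 1.65 (95% confidence interval 0.88 to 2.42, adjusted p = 0.00519), and the 3 Type D libraries lay above the 3 Type V libraries. Without 4711-1 the difference was 1.39 (adjusted p = 0.0604), and with only the compared groups the adjusted p was 0.126. Plk2 also separated without overlap, 596 to 664 TPM in Type D and 429 to 538 TPM in Type V, but its difference of 0.45 was not called (adjusted p = 0.638). Thus 2 of the 9 members separated, against 29.2% of all genes in either direction and 13.1% higher in Type D. In Restored + CsA 0 of 9 were called (background 7.82%). There the Plk3 libraries were 18.3, 20.2 and 14.2 TPM in Type D and 5.06, 13.9 and 8.35 TPM in Type V, a difference of 0.96 (adjusted p = 0.0972) that passed the test only without 4716-10 (1.29, adjusted p = 0.0346). Plk3 was among the 3730 genes (26.4% of all tested) with an unadjusted limma p under 0.05.

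**Figure D4:**
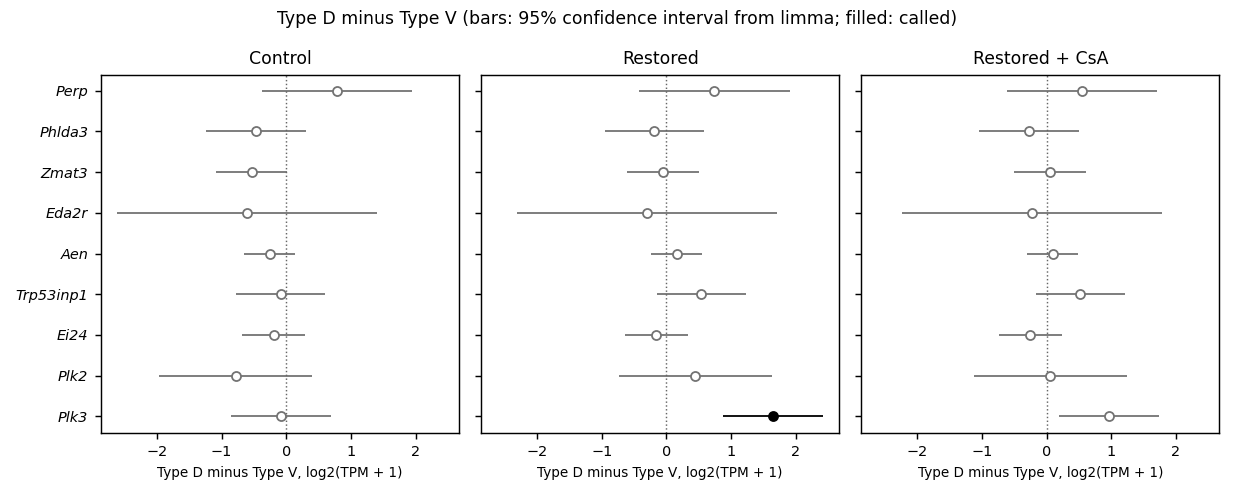
Type D minus Type V on the log2(TPM + 1) scale for each of the 9 genes in Control, Restored and Restored + CsA. Points are fitted differences, bars their 95% confidence intervals from limma, and the filled point is the single call, Plk3 in Restored at 1.65.

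The direct test of whether restoration acted differently in the types called 0 of 9 members, against 0.0284% of all genes tested. At an unadjusted p under 0.05 there were 540 genes (3.83% of all tested). Plk3 was among them, with a change larger in Type D by 1.73 (95% confidence interval 0.64 to 2.82, limma adjusted p = 0.776). With the line as a block the adjusted p was 0.015 and Plk3 was called (background 2.44%), and with the line as a random effect it was 0.00891. Restored Plk3 was above its own Control in 3 of 3 Type D lines and below it in 3 of 3 Type V lines. For Plk2 the difference was 1.23 (-0.44 to 2.90), for Trp53inp1 0.63 (-0.34 to 1.60), for Zmat3 0.48 (-0.30 to 1.27) and for Aen 0.41 (-0.15 to 0.97), none called with or without the block. The remaining 4 differences lay between -0.04 and 0.30. For CsA added to restoration 0 of 9 differences were called (background 0%), and 102 genes (0.723%) but none of the 9 had an unadjusted p under 0.05.

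Levels of the 9 genes differed widely, and TPM allows them to be set side by side per length. In Type D Control the means were 131 TPM for Perp and Phlda3, 115 for Plk2, 96.6 for Ei24, 26.7 for Trp53inp1, 22.6 for Aen, 17.0 for Zmat3, 11.7 for Plk3 and 2.04 for Eda2r. In Type D Restored the order was Perp at 660, Phlda3 at 647, Plk2 at 635, Trp53inp1 at 344, Ei24 at 318, Zmat3 at 126, Aen at 102, Eda2r at 42.2 and Plk3 at 30.4 TPM. The libraries of Perp, Phlda3 and Plk2 overlapped in both treatments, so these neighbours could not be ordered. Trp53inp1 moved above Ei24 in the means on restoration, although their Restored libraries overlapped (296 to 380 and 306 to 329 TPM). Plk3 stood behind Eda2r in the Restored means, again with overlapping libraries.

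Across the 24 libraries 8 of the members varied together. Pearson's r between pairs of them was 0.796 to 0.963, as a description over libraries that share lines and the contrast of restoration. Plk3 had r of 0.0334 to 0.246 with the others. The genes closest to each member over the same 24 libraries were Prkaa2 and Tbc1d2 for Perp (r = 0.948 and 0.945), Ercc5 and Samd12 for Phlda3 (0.959 and 0.957) and Rnf169 and Tmem19 for Zmat3 (0.982 and 0.979). They were Sfmbt1 and Vps41 for Eda2r (0.96 and 0.952), Tbc1d8 and Bet1l for Aen (0.98 and 0.98) and Lrrc28 and Hyal1 for Trp53inp1 (0.985 and 0.976). For Ei24 they were Rps27l and Homer3 (0.982 and 0.98), for Plk2 Micall1 and Ndel1 (0.936 and 0.92), and for Plk3 Ifrd1 and Ccng2 (0.904 and 0.88). Ercc5 and Rps27l are themselves on the list of other p53 targets.

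That list holds 36 further p53 targets, all tested. On restoration 22 rose in Type D and 20 in Type V, against 4.49% and 3.39% of all genes tested. Under CsA 20 and 19 rose (background 3.53% and 2.84%), with 0 falling in any of the 4. Their median changes were 1.55 in Type D and 1.51 in Type V, beside the 2.47 and 2.06 of the 9 members. Both lists were chosen with earlier results of these data known, so their medians do not rank them. In all 4 restoration comparisons 17 of the 36 were called. At most 4.61% of all genes can be, the share called either way under CsA in Type V. The largest rises were Ak1 (4.55) and Tap1 (4.53) in Type D and Cdkn1a (4.80) and Dcxr (4.01) in Type V, with adjusted p of 2.76e-05, 2.08e-09, 4.9e-09 and 1.54e-06. Cdkn1a encodes the cell cycle inhibitor p21, and Tap1 a peptide transporter of antigen presentation. The lowest values were those of Gls2 in Type D (-0.89, adjusted p = 0.549) and Sesn1 in Type V (-0.62, adjusted p = 0.354), neither called. Among the members 7 of 9 were called in all 4 comparisons, and Plk2 and Plk3 in fewer.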

How the data were processed

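RNA-seq libraries were TruSeq stranded mRNA, read single-end. The authors deposited TPM values for 24 libraries, used as deposited. Their methods name Kallisto or HISAT2, and both mm10 and GRCm39, without saying which lies behind the table. TPM holds no counts, so depth is unknown and its precision was read from the spread between lines.

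The filter kept genes that reached a TPM of 1 in 3 or more libraries, on a log2(TPM + 1) scale that understates changes of low genes. One model over all 24 libraries, with a coefficient per group, was fitted by lmFit and contrasts.fit and moderated by eBayes (trend) of limma 3.58.1 (R 4.3.3), and tests were two-sided. A call needed a Benjamini-Hochberg adjusted p under 0.05 and a shift of 1 log2 or more. Each group's replicates are separate lines.

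Libraries of a line are paired by the labels. After removing group means, same-line libraries correlated at r = 0.599 to 0.929 (36 pairs), and different lines of a type in different groups at -0.675 to 0.0438 (72 pairs). The cell line as a block was an alternative. Others were pseudocounts of 0.1 and 0.5, no filter, a TPM minimum of 5, quantile normalization, median-ratio scaling, only the compared groups, a random line effect and each line left out.

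The members and the gene lists were chosen with earlier results of these data known. All 9 members are named, list genes where they were among the 2 largest rises or falls or where a list is named whole, and the 2 best correlated genes per member. Dsp, Pkp1, Trp63, Dcn, Eda, Trp53, Rb1, Rbl2, Chga and Neurod1 were also given values, chosen after theirs were seen or as checks. Positions are from GENCODE M21 (GRCm38) and promoters from RefSeq (GRCm38.p6), which may differ from the authors' build. The fit was tested on simulated data. Figures used Python 3.11.15 and matplotlib 3.10.9. One other neuroendocrine marker is not reported here. Chromatin and protein data were not analysed here.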

Additional observations from a re-analysis of the deposited data

Results flagged for a closer look

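For Plk3 every Type D line was higher after restoration than before and every Type V line lower. The difference between the types was 1.73 on the log2(TPM + 1) scale, with an adjusted p of 0.776 in limma and of 0.015 with the cell line as a block.

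For Perp every Type D line was lower with CsA added to restoration (-0.27 to -0.03) and every Type V line higher (0.06 to 0.09). The difference between the types was -0.19, with an adjusted p of 1 in limma and 0.999 with the block. The patterns of Plk3 and Perp were found by searching every member and every change within lines for opposite signs. How many of all genes tested show such a pattern was not counted.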

How the results depend on the processing

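Over 117 pairs of member and comparison, the 32 that were called gave 386 values under the alternatives: 352 kept the call, 34 lost it and 0 changed sign. The 85 that were not called gave 1126 values, of which 7 gained the call and 56 changed sign, 47 of those with a line left out, and none of the reversed values exceeded 0.307 in size. Fitting only the compared groups gave 3 calls in place of 7 for restoration in Type V, 4 in place of 7 under CsA in Type V, and 0 in place of 1 for types in Restored. With a line left out the members called on restoration were 6 to 7 in place of 9 in Type D and 6 to 7 in place of 7 in Type V. Under CsA they were 5 to 6 in place of 8 in Type D (5 without 4711-18) and 5 to 7 in place of 7 in Type V. For types in Restored they were 0 to 1 (0 without 4711-1), and for types in Restored + CsA 0 to 1 (1 without 4716-10). The difference of restoration between types gave 1 call with the replicate block and 1 with the line as a random effect, in place of 0. Where the block could be fitted, it changed no call of a member other than Plk2 in Type V and Plk3 in that difference. Plk3 under CsA in Type V ranged from -0.52 to 0.14 with a line left out (0.14 without 4711-11). The causes were not tested. Depth is unknown, so limits of detection cannot be given, and with 3 lines a type the errors rest on the spread of few lines.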
